A study of Mus musculus with 4 samples.

Results

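The genes of glycolysis, of the step that sends its product to lactate or to mitochondria, and of the response to low oxygen were followed in mouse embryonic stem (ES) cells 12 h after a change in signalling. The 35 genes were taken from a list by symbol, and 31 of them had a probe in the annotation of the array, among 16593 genes with a probe. A gene counted as detected on an array where its detection p-value, which sets its signal against negative control beads, was below 0.01. By that rule 26 of the 31 were detected on at least 1 array and 22 on all 4. Gpi1, Eno1, Ldhb and Ero1l (now Ero1a) had no probe by symbol or gene ID and were not analysed here. Eno2, Pdk2, Bnip3, Egln1 (3 probes) and P4ha1 were not detected on any array, so no difference is given for them.

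The cells were of the OG2 line, which carries a green fluorescent protein transgene driven by Pou5f1 regulatory sequence. All had grown without feeders on gelatin in KSR medium that held 1 µM PD0325901, a MEK inhibitor that keeps ERK inactive, 3 µM CHIR99021, a GSK3 inhibitor, and 1000 U/ml of the cytokine LIF, which signals through JAK kinases to STAT3. For the last 12 h they were in FGF2 (10 ng/ml) with JAK inhibitor I (1 µM), FGF2 with LIF, PD0325901 with JAK inhibitor I, or PD0325901 with LIF. These media are written FGF2/JAKi, FGF2/LIF, PD/JAKi and PD/LIF. The labels name no CHIR99021 after the switch in any of the 4 groups, and do not say whether it was kept or withdrawn. FGF2 took the place of PD0325901 and the JAK inhibitor that of LIF, so that adding one agent and withdrawing the other cannot be told apart in either switch. Each medium was measured on 1 Illumina bead array, and nothing in the labels tells of a repeat culture.

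Glycolysis splits glucose into pyruvate in the cytosol. Lactate dehydrogenase then reduces pyruvate to lactate, or the pyruvate dehydrogenase complex takes it into the citric acid cycle, and pyruvate dehydrogenase kinases switch that complex off. Under low oxygen, hypoxia-inducible factor (HIF) raises the transcription of glucose transporters, many glycolytic enzymes, Ldha and Pdk1, and of genes for blood vessel growth and mitophagy. The alpha subunit of HIF is controlled mainly by degradation of the protein, after hydroxylation by the Egln enzymes, and an RNA array does not measure that. ES cells in the naive state use both glycolysis and respiration, and cells of the later, primed state depend more on glycolysis.

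The arrays were alike in coverage, with 10626 to 10927 probes detected and a median bead standard error of 4.08% to 4.56% of the signal. Their median deposited signals ran between 81.99 (PD/JAKi) and 92.85 (FGF2/JAKi). Known targets of both pathways differed strongly: the ERK target Egr1 was at least 14.8-fold higher with FGF2 beside the JAK inhibitor and had a log2 difference of 3.36 beside LIF, and the STAT3 target Socs3 had log2 differences of −4.41 beside PD0325901 and −4.27 beside FGF2 for the JAK inhibitor minus LIF. The further ERK targets Dusp6 and Spry4 had FGF2 differences of 1.43 and 0.87 beside the JAK inhibitor and 1.57 and 1.89 beside LIF. Of the further STAT3 targets, Stat3 itself was at −1.74 beside PD0325901 and −1.68 beside FGF2 for the JAK inhibitor, and Bcl3, detected with LIF only, was at least 8.48-fold and 8.06-fold lower. All 8 ES cell markers were detected on every array, and 3 of them reached 1.5-fold in some difference, in unlike directions. Tdgf1 was at −1.18 beside PD0325901 and −1.21 beside FGF2 for the JAK inhibitor (adjusted p = 0.0318 in an additive limma fit of both switches). Nanog was at −0.56 beside the JAK inhibitor and −0.61 beside LIF for FGF2, and at −0.43 beside PD0325901 and −0.37 beside FGF2 for the JAK inhibitor. In the same order, Utf1 was at 0.39 and 0.59, and at 0.30 and 0.09. Of 9 fibroblast and stromal markers with a probe, 6 were detected and Col1a2, Col3a1 and Postn were not. The summed normalized signal of those 6 was 2776 in FGF2/JAKi, 3665 in FGF2/LIF, 3992 in PD/JAKi and 4753 in PD/LIF. Most of that sum was Acta2 (1901, 2073, 2918 and 2879 in that order) and Vim (601, 1319, 790 and 1117). Of 6 primitive endoderm markers Gata6, Sox7 and Dab2 were detected and Gata4, Sox17 and Pdgfra were not. For FGF2, Gata6 was at 0.70 beside the JAK inhibitor and 0.80 beside LIF, and Dab2 at −0.44 and −0.61. Sox7, detected with FGF2 only, was at 0.49 and 0.51. Its bound was at least 1.09-fold higher beside LIF, with none beside the JAK inhibitor. For the JAK inhibitor, Sox7 was at −0.18 beside FGF2, and beside PD0325901 it was not detected on either array. Gata6 was at −0.55 beside PD0325901 and −0.65 beside FGF2 for the JAK inhibitor, and Dab2 at 0.21 and 0.38. These markers thus went both ways. Their part in the members' values was not tested.

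Values below are log2 normalized signals of 1 probe per gene, with the bead standard error, which covers the beads of 1 array and not the spread between cultures. A difference has no test, since each medium had 1 array, and was counted where it reached 1.5-fold. Besides, a limma fit took both switches as additive terms over all 8341 detected genes, whose error came from the departure from additivity alone, with 1 residual degree of freedom, so that its p-values assume that the switches add. Without normalization between arrays, the median of all genes moved to 0.14 and 0.42 for FGF2 minus PD0325901 with LIF and with the JAK inhibitor, and to −0.08 and 0.20 for JAK inhibitor minus LIF with PD0325901 and with FGF2. The sign of the FGF2 difference with the JAK inhibitor then turned for 12 of the 26 detected members, all from negative to positive; among them Pfkl (0.39), Aldoa (0.31), Tpi1 (0.09) and Ddit4 (0.33) were below that median of all genes. With median scaling, where that median moved to 0.29, this sign turned for 10 members, among them Pfkl (0.26), Aldoa (0.18) and Ddit4 (0.19). Directions are therefore relative to the median of all genes and, for small differences, depend on the normalization.

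The 5 members with a difference of at least 1.5-fold in any medium were Pdk1, Pfkp, Ldha, Aldoc and Pgk1. Their promoters are shown because many genes of this group are known as HIF targets, and HIF binds a short core, ACGTG or GCGTG, in the hypoxia response element. Each window holds the 250 bases before and the 50 after a transcription start in RefSeq (GRCm38.p6), 5′ to 3′ on the strand of the gene. For genes with more than 1 window, the one shown has its start farthest 5′. Capitals mark every match to ACGTG or GCGTG on either strand, so that CACGT and CACGC are matches on the opposite strand, and CACGTG, which matches on both strands, is 1 run.
Pdk1, chr2:71872974-71873273, plus strand: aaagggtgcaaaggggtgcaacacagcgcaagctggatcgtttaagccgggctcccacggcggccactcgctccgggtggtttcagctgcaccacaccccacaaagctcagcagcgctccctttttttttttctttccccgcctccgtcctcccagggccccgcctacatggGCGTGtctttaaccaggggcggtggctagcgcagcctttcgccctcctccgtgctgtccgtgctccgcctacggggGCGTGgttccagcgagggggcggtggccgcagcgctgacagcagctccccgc
Pfkp, chr13:6648722-6649021, minus strand: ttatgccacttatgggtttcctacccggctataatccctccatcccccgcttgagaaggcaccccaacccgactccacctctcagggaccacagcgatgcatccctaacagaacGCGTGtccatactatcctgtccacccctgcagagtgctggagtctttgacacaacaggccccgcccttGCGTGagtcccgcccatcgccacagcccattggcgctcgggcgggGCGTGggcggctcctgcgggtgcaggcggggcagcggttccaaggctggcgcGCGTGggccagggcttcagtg
Ldha, chr7:46845554-46845853, plus strand: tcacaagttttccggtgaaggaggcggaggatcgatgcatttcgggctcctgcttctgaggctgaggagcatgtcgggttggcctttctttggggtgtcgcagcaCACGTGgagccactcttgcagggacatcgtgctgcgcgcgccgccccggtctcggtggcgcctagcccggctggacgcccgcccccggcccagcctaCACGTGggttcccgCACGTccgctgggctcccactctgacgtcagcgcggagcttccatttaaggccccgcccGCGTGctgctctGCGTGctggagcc
Aldoc, chr11:78322823-78323122, plus strand: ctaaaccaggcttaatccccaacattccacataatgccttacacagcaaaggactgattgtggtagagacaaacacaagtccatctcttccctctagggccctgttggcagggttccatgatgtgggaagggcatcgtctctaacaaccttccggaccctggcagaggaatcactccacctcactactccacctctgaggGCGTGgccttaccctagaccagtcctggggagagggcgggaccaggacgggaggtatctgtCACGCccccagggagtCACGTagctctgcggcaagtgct
Pgk1, chrX:106186850-106187149, plus strand: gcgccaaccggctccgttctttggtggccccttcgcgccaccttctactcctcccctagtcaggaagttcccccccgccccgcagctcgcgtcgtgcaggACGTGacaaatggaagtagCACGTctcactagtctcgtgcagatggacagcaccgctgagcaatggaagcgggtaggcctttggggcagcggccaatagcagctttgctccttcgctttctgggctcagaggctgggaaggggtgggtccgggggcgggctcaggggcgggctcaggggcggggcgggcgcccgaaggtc

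The Ldha window held 5 such runs in capitals, the Pfkp window 4, the Aldoc window 3, and the Pdk1 and Pgk1 windows 2 each. All runs of Pfkp and Pdk1 were GCGTG and both runs of Pgk1 were ACGTG. Ldha held CACGTG at 2 places, the letters that also form an E-box. Of the 31 genes with a probe, 29 matched a RefSeq promoter by symbol, with 42 windows in all (Slc2a3 and Bnip3l did not match). ACGTG stood in 59.5% of these 42 windows, against 20.9% of the 21263 windows of 17492 protein-coding genes. GCGTG stood in 54.8% of member windows, against 38.5% of all windows, and either core in 78.6%, against 49.3%. The STAT motif TTCNNNGAA was in 4.76% of member windows and 7.69% of all windows, and the ETS core CCGGAA in 11.9% and 18.7% (both strands in each case). These are letter matches in fixed windows of genes that were listed as glycolytic or hypoxia-linked, and windows of 1 gene can overlap.

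**Figure D1:**
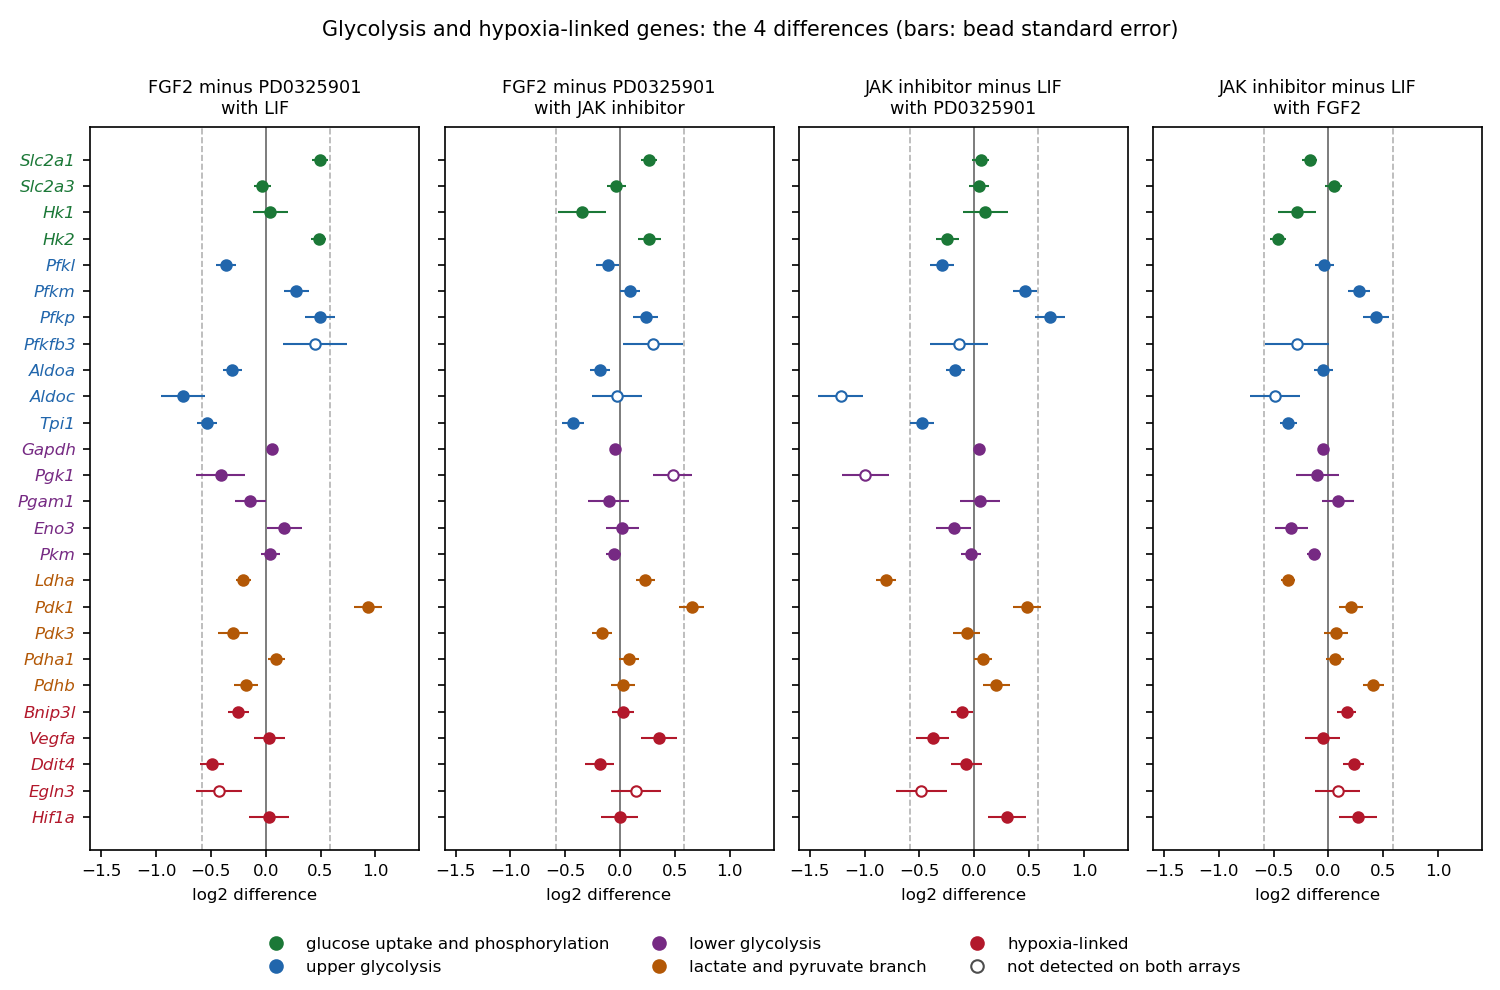
Log2 difference (horizontal axis) of each of the 26 detected genes for FGF2 minus PD0325901 and for JAK inhibitor minus LIF, each in both media, with genes in rows coloured by role. Bars are bead standard errors, open circles mark genes not detected on both arrays, and dashed lines mark 1.5-fold. Pdk1 lies to the right of the line in both FGF2 panels, while Aldoc, Pgk1 and Ldha lie to the left of it in the third panel.

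The first question was what follows when FGF2 replaces the block of ERK signalling. With LIF, 2 of the 26 members reached a 1.5-fold difference, Pdk1 being higher and Aldoc lower with FGF2, against 9.48% of all genes tested (5.61% higher and 3.87% lower). With the JAK inhibitor 1 member did, again Pdk1 as the higher one, against 4.68% of all genes (2.46% higher and 2.22% lower). Pdk1 was thus the 1 member at least 1.5-fold higher with FGF2 in both media, as were 0.755% of all genes, and no member was lower in both (0.516% of all genes). A single gene is 3.85% of the 26 members. In the additive limma fit 0 of 26 members passed an adjusted p of 0.05 (0.24% of all genes did), and 5 had an unadjusted p below 0.05 (11.5% of all genes). These were Slc2a1, Hk2, Pfkfb3 and Pdk1 on the higher side and Tpi1 on the lower side. Pfkfb3 was detected in FGF2/LIF only, so its p-value rests on signals below detection on the other arrays and gives no support. The median difference over the members was 0.02 beside the JAK inhibitor and −0.00 beside LIF, and over all genes −0.00 and −0.01.

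Among the genes of glucose uptake and phosphorylation, Slc2a1 and Hk2 had positive FGF2 differences in both media and Slc2a3 stayed near 0. Slc2a3 (ILMN_2616565), a neuronal-type glucose transporter that is also made in ES cells, had the brightest probe of the role and stood at 12.28 in FGF2/JAKi, 12.23 in FGF2/LIF, 12.31 in PD/JAKi and 12.26 in PD/LIF. All 4 arrays lay within 0.08, near the bead standard error of a single difference. Slc2a1 (ILMN_1258159), the widespread basal glucose transporter, stood at 11.33 in FGF2/JAKi and 11.50 in FGF2/LIF, against 11.07 in PD/JAKi and 11.01 in PD/LIF. Both FGF2 arrays lay above both PD0325901 arrays, by 0.27 ± 0.07 with the JAK inhibitor and 0.50 ± 0.07 with LIF (bead standard error). Hk2 (ILMN_1239397), the inducible hexokinase, stood at 11.16 in FGF2/JAKi and 11.62 in FGF2/LIF, against 10.89 in PD/JAKi and 11.14 in PD/LIF. The lower FGF2 array and the higher PD0325901 array were about equal, so the groups touch. The mean differences of 0.38 ± 0.16 for Slc2a1 and 0.37 ± 0.16 for Hk2 (SE, additive limma fit) had adjusted p-values of 0.421 and 0.424. The constitutive hexokinase Hk1 had differences of −0.35 with the JAK inhibitor and 0.04 with LIF, on a dim probe.

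The enzymes of upper glycolysis did not move together. The 3 subunit genes of phosphofructokinase, the committed step, differed in direction, with Pfkp at 0.23 with the JAK inhibitor and 0.50 with LIF, Pfkm at 0.09 and 0.28, and Pfkl at −0.11 and −0.37. A further probe of Pfkp (ILMN_2673233) gave 0.28 and 0.61, and the probes of Pfkm disagreed, ILMN_3004553 giving 0.21 and 0.55 and ILMN_1252214 giving 0.85 and −0.25. The second probe of Pfkl (ILMN_2871325), detected in PD/JAKi only, gave −0.53 and 0.09. Tpi1 (ILMN_1230137), triose phosphate isomerase, stood at 9.68 in FGF2/JAKi and 10.05 in FGF2/LIF, against 10.11 in PD/JAKi and 10.58 in PD/LIF. Both FGF2 arrays lay below both PD0325901 arrays, though the array of FGF2 with LIF and that of PD0325901 with the JAK inhibitor were within their bead errors of each other. The additive limma fit gave Tpi1 a mean of −0.48 ± 0.15 (SE; adjusted p = 0.326), and without normalization between arrays its difference with the JAK inhibitor was 0.09, below the shifted median of all genes. Its probe ILMN_2932359 gave −0.31 with the JAK inhibitor and −0.59 with LIF, but ILMN_1231447 gave 0.43 and 0.18.

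Both aldolase genes had negative FGF2 differences with LIF. Aldoa, the main isozyme of most tissues, had −0.18 with the JAK inhibitor and −0.30 with LIF. Aldoc (ILMN_3160137), an isozyme best known from brain, was detected only with LIF, at 5.17 with FGF2 and 5.93 with PD0325901, a 1.69-fold lower signal with FGF2. With the JAK inhibitor it was below the detection rule on both arrays, at 4.69 with FGF2 and 4.71 with PD0325901. Pfkfb3, which makes an activator of phosphofructokinase, was detected only in FGF2/LIF and was there at least 1.01-fold higher than with PD0325901. That bound is too near 1 to tell the 2 media apart.

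Of lower glycolysis, the enzymes from Gapdh to Pkm, 4 of the 5 detected genes stayed within 0.2 on the log2 scale in both media. Gapdh was at −0.04 with the JAK inhibitor and 0.05 with LIF, Pgam1 at −0.10 and −0.14, the muscle enolase Eno3 at 0.02 and 0.17, and the pyruvate kinase gene Pkm at −0.06 and 0.04. The exception was Pgk1 (ILMN_2797973), phosphoglycerate kinase, at 0.48 with the JAK inhibitor and −0.41 with LIF. It was below detection in PD/JAKi, so the first value means at least 1.26-fold higher with FGF2.

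The largest FGF2 difference of the group was that of Pdk1 (ILMN_1229318), the pyruvate dehydrogenase kinase best known as a HIF target. It stood at 9.20 in FGF2/JAKi and 8.99 in FGF2/LIF, against 8.54 in PD/JAKi and 8.06 in PD/LIF. The lower FGF2 array exceeded the higher PD0325901 array by more than their bead standard errors of 0.09 each. Pdk1 was 1.57-fold higher with FGF2 beside the JAK inhibitor (log2 0.65 ± 0.11, bead standard error) and 1.91-fold higher beside LIF (0.93 ± 0.13). Its mean difference was 0.79 ± 0.16 (SE, additive limma fit) with an adjusted p of 0.150, and 48 of the 8341 genes had a higher mean. The call depends on the processing. Pdk1 passed, on the higher side, in the 6 of 9 alternative settings that called any member for FGF2, and its adjusted p ran between 9.89e-08 and 0.428 over the 9.

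The other genes around pyruvate showed no such difference. Pdk3, a kinase of the same family, had −0.16 with the JAK inhibitor and −0.30 with LIF. Pdha1 and Pdhb, the subunits of the dehydrogenase that these kinases act on, had 0.08 and 0.03 with the JAK inhibitor and 0.10 and −0.18 with LIF. Ldha, which encodes the lactate dehydrogenase subunit that favours lactate, had a difference of 0.23 ± 0.09 with the JAK inhibitor and −0.21 ± 0.07 with LIF, opposite signs in the 2 media, each beyond its bead error. Its mean was 0.01 ± 0.17 (SE, adjusted p = 0.981 in the additive limma fit).

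Among the hypoxia-linked genes no FGF2 difference reached 1.5-fold. Ddit4 (ILMN_2993109), a stress-induced inhibitor of mTOR signalling, had the brightest probe of these and stood at 9.29 in FGF2/JAKi and 9.06 in FGF2/LIF, against 9.48 in PD/JAKi and 9.55 in PD/LIF. Both FGF2 arrays were the lower ones, with a mean of −0.34 ± 0.16 (SE) and an adjusted p of 0.469 in the additive limma fit. Hif1a itself was at −0.00 with the JAK inhibitor and 0.03 with LIF. The mitophagy receptor gene Bnip3l had 0.03 and −0.25, and Vegfa, the angiogenic growth factor, 0.36 and 0.03 (0.21 with LIF on a second probe, detected with LIF only). Egln3, an oxygen-sensing HIF hydroxylase that is itself induced by HIF in many cells, was detected in FGF2/JAKi and PD/LIF. With LIF it was at least 1.32-fold lower with FGF2, and with the JAK inhibitor at least 1.02-fold higher.

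**Figure D2:**
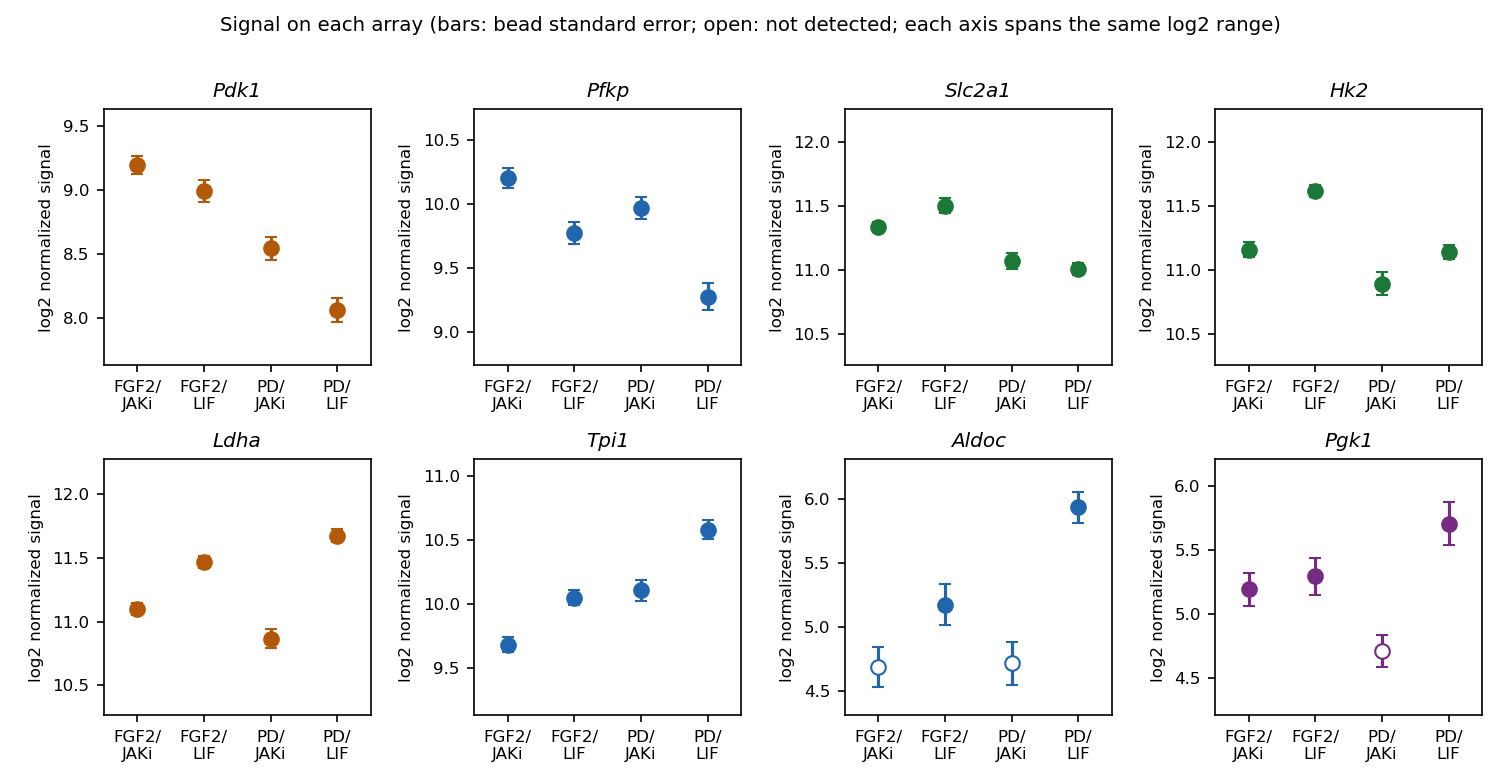
Log2 normalized signal (vertical axis) on the array of each medium for 8 genes, with FGF2 media left of PD0325901 media and the JAK inhibitor left of LIF within each. Bars are bead standard errors, open circles mark arrays where the gene was not detected, and every axis spans the same log2 range. Pdk1 is highest in FGF2/JAKi (9.20) and lowest in PD/LIF (8.06), whereas Ldha, Tpi1, Aldoc and Pgk1 are highest in PD/LIF.

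The second question was what follows when a JAK inhibitor replaces LIF. With PD0325901, 4 of the 26 members differed at least 1.5-fold, against 9.42% of all genes. Pfkp was the higher one (4.88% of all genes were higher), and Aldoc, Pgk1 and Ldha were lower with the inhibitor (4.54% of all genes were lower). Of these 4, Aldoc and Pgk1 were not detected with the inhibitor. Among the 22 members detected on all 4 arrays, 1 was higher and 1 lower, against 3.77% and 3.21% of the genes detected on all 4. With FGF2, 0 members reached 1.5-fold, against 4.68% of all genes (1.83% higher and 2.84% lower), so none did so in both media (0.252% of all genes were higher in both and 0.827% lower). In the additive limma fit 0 of 26 members passed an adjusted p of 0.05 (0.288% of all genes did), and 6 had an unadjusted p below 0.05 (10.6% of all genes). These were Pfkm and Pfkp on the higher side and Aldoc, Tpi1, Pgk1 and Ldha on the lower side. The median over the members was −0.07 with PD0325901 and −0.04 with FGF2, and over all genes 0.00 and 0.01.

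Of the genes of glucose uptake and phosphorylation, Hk2 had the largest JAK inhibitor difference, −0.46 ± 0.07 with FGF2 and −0.25 ± 0.10 with PD0325901 (bead standard error). Its mean was −0.35 ± 0.16 (SE, additive limma fit, adjusted p = 0.475). Slc2a1 was at −0.17 with FGF2 and 0.06 with PD0325901, Slc2a3 at 0.05 in both media, and Hk1 at −0.29 and 0.10.

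In upper glycolysis, Pfkp (ILMN_1237695), the platelet-type subunit of phosphofructokinase, stood at 10.20 in FGF2/JAKi and 9.97 in PD/JAKi, against 9.77 in FGF2/LIF and 9.28 in PD/LIF. Both inhibitor arrays lay above both LIF arrays. Pfkp was 1.62-fold higher with PD0325901 (log2 0.69 ± 0.13, bead standard error) and 1.35-fold higher with FGF2 (0.43 ± 0.12), with a mean of 0.56 ± 0.16 (SE, additive limma fit, adjusted p = 0.332). Its second detected probe gave 0.44 and 0.12, and with PD0325901 Pfkp was under 1.5-fold by the mean of its detected probes (0.57) and without normalization between arrays (0.57). The muscle-type subunit gene Pfkm was at 0.46 with PD0325901 and 0.28 with FGF2, and probe ILMN_3004553 gave 0.59 and 0.24, whereas ILMN_1252214 gave −0.56 and 0.54. The liver-type Pfkl was at −0.29 and −0.04. Its second probe (ILMN_2871325), detected in PD/JAKi only, stood at 5.01 there and 4.50 in PD/LIF, the opposite direction, and the mean of the detected probes gave 0.11 with PD0325901.

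The next steps had negative differences. Aldoc stood at 4.69 in FGF2/JAKi and 4.71 in PD/JAKi, not detected on either array, against 5.17 in FGF2/LIF and 5.93 in PD/LIF. It was at least 2.1-fold lower with the inhibitor beside PD0325901 and at least 1.30-fold lower beside FGF2. Its mean of −0.85 ± 0.20 (SE, additive limma fit, adjusted p = 0.246) was the most negative of the group, and 42 of the 8341 genes had a lower mean. Its log2 difference with PD0325901 moved with the processing, being −0.47 without background correction, smaller than that bound, and −1.52 in the authors' value table. Aldoa was at −0.17 with PD0325901 and −0.05 with FGF2. Tpi1 was at −0.47 ± 0.11 with PD0325901 and −0.37 ± 0.08 with FGF2 (bead standard error), with a mean of −0.42 ± 0.15 (SE, additive limma fit, adjusted p = 0.404), and again its probe ILMN_1231447 went the other way, with 0.04 and 0.29. Pfkfb3, at least 1.04-fold lower with FGF2, was not detected on either array with PD0325901.

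Lower glycolysis held the same exception as before. Pgk1 stood at 5.19 in FGF2/JAKi and 4.71 in PD/JAKi, the array without detection, against 5.29 in FGF2/LIF and 5.71 in PD/LIF. It was at least 1.80-fold lower with the inhibitor beside PD0325901 and at −0.10 beside FGF2, so the gap rests on 1 medium. Its log2 difference with PD0325901 was −0.36 without background correction, smaller than that bound, and −1.21 in the authors' value table. Gapdh was at 0.04 with PD0325901 and −0.05 with FGF2, Pgam1 at 0.05 and 0.09, Eno3 at −0.19 and −0.34, and Pkm at −0.03 and −0.13.

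At the pyruvate branch the largest difference beside PD0325901 was that of Ldha, and beside FGF2 that of Pdhb. Ldha (ILMN_1257965) stood at 11.10 in FGF2/JAKi and 10.87 in PD/JAKi, against 11.47 in FGF2/LIF and 11.67 in PD/LIF. Both inhibitor arrays lay below both LIF arrays by several bead standard errors. Ldha was 1.75-fold lower with PD0325901 (log2 −0.80 ± 0.09, bead standard error) and 1.29-fold lower with FGF2 (−0.37 ± 0.07), with a mean of −0.59 ± 0.17 (SE, additive limma fit, adjusted p = 0.341). Over the 9 alternatives the difference with PD0325901 ran between −1.03 and −0.78, and the adjusted p between 6.45e-07 and 0.473. That range of p takes in the settings with infinite prior degrees of freedom, named above for the FGF2 call of Pdk1. Pdk1 was at 0.48 with PD0325901 and 0.21 with FGF2 (adjusted p = 0.499 in the same fit). Pdhb was at 0.20 and 0.41, and a second probe gave 0.17 and 0.40. Pdha1 was at 0.08 and 0.06, and Pdk3 at −0.07 and 0.07.

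Among the hypoxia-linked genes Hif1a was at 0.30 with PD0325901 and 0.27 with FGF2, on 4 arrays between 6.89 and 7.19 with bead standard errors of a difference of 0.18. Vegfa was at −0.38 and −0.05, Bnip3l at −0.11 and 0.17 and Ddit4 at −0.07 and 0.23. The second probe of Vegfa (ILMN_3121255) was not detected with the inhibitor, at 4.57 in FGF2/JAKi and 4.61 in PD/JAKi, against 5.12 in FGF2/LIF and 4.91 in PD/LIF, so that beside FGF2 the probes gave unlike differences. Egln3 was at least 1.29-fold lower with the inhibitor beside PD0325901 and at least 1.04-fold higher beside FGF2. None of these genes reached 1.5-fold on the probe that stood for it.

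Of the 26 members, 10 had their highest signal in PD/LIF, among them Ldha, Tpi1, Aldoa, Aldoc, Pfkl and Pgk1, as did 2471 of all 8341 genes. Among genes detected on all 4 arrays, 7 of 22 members and 2060 of 6769 genes did, which are similar shares. Further probes differed: ILMN_2871325 of Pfkl was highest in PD/JAKi (5.01), and ILMN_1231447 of Tpi1 was lowest in PD/LIF (6.21). The summed signal of the 6 detected stromal markers was 4753 in PD/LIF and 2776 to 3992 in the other 3 media. Most of it was Acta2 and Vim, of which neither was highest in PD/LIF. The matrix gene Dcn stood at 6.45 in FGF2/JAKi, 6.70 in FGF2/LIF and 6.50 in PD/JAKi, against 8.86 in PD/LIF. Lum was detected with PD0325901 only, at 5.35 in PD/JAKi and 6.51 in PD/LIF, and Thy1 was also highest in PD/LIF. The others did not single out that array: Vim was highest in FGF2/LIF (10.37, against 10.13 in PD/LIF), Acta2 was at 11.51 in PD/JAKi and 11.49 in PD/LIF, and Col1a1 was at 6.69 in FGF2/JAKi and 6.70 in PD/LIF. The part of these markers in the lower values of these members with the JAK inhibitor and with FGF2 was not tested. Fewer cells of one type and less RNA per cell cannot be told apart in such bulk samples.

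**Figure D3:**
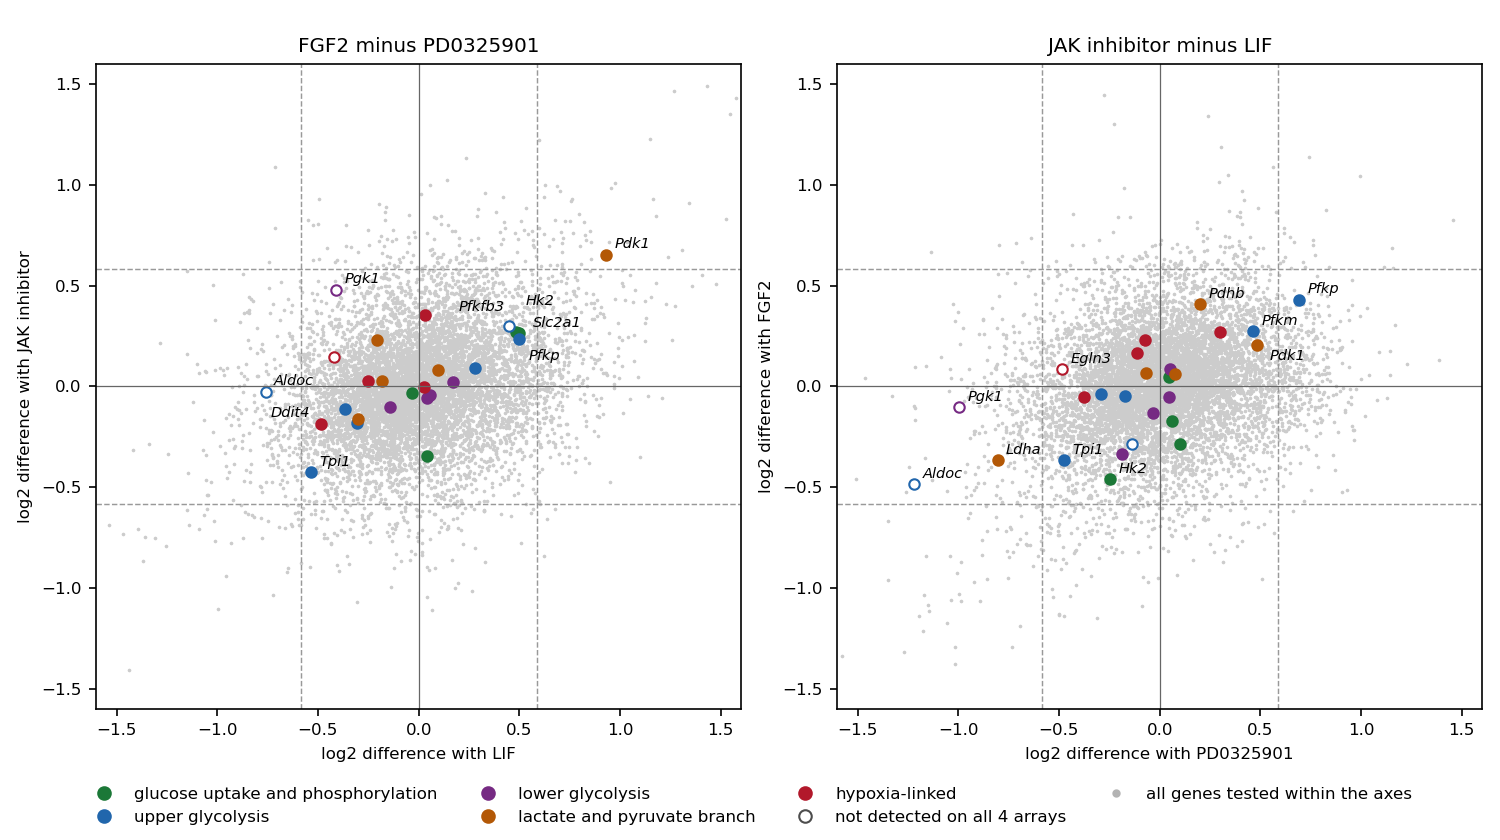
Log2 difference in one medium (horizontal axis) against the other (vertical axis), for FGF2 minus PD0325901 (left) and JAK inhibitor minus LIF (right), with the 26 detected genes coloured by role and all tested genes in grey. Dashed lines mark 1.5-fold and open circles mark genes not detected on all 4 arrays. Pdk1 is the member beyond the line on both axes on the left, and no member is on the right.

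The 2 differences of a switch share no array, so that each is a separate reading of it. For FGF2, 17 of the 26 members had the same sign in both media, against 59.5% of all genes. Of these, 9 were above 0 in both (28.9% of all genes) and 8 below (30.6%). For the JAK inhibitor 19 had the same sign, against 58.0% of all genes, with 8 above 0 (30.2%) and 11 below (27.8%). The departure from additivity, the FGF2 difference with the JAK inhibitor minus that with LIF, reached 1.5-fold for 2 members, Pgk1 (0.89) and Aldoc (0.73), against 12.2% of all genes (5.48% above and 6.71% below 0). Each of them was below detection on at least 1 array, and among the 22 members detected on all 4 arrays 0 departed that far, against 3.29% above and 4.77% below 0 of all such genes. Over all 4 differences, 5 of the 26 members (19.2%) reached 1.5-fold at least once, against 20.3% of all genes, and 3 of the 22 detected on all arrays (13.6%), against 15.0%.

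Genes next to these in metabolism and in the HIF pathway, from lists of related genes, gave no call in the additive limma fit for either switch. Of 10 other detected isozymes, regulators and transporters, 3 reached 1.5-fold in any of the 4 differences, of 6 genes for pyruvate entry to mitochondria 2, of 5 pentose phosphate genes 0, of 17 citric acid cycle genes 3, of 8 HIF subunits and regulators 1, and of 17 other hypoxia targets 7, against 20.3% of all genes. The phosphoglucomutase gene Pgm1 was at least 1.5-fold lower with FGF2 in both media, at −0.59 beside the JAK inhibitor and −0.60 beside LIF. The hexose transporter gene Slc2a6 was detected only in PD/JAKi. It was at least 1.55-fold lower with FGF2 beside the JAK inhibitor. Beside PD0325901 the JAK inhibitor array exceeded that of LIF at least 1.49-fold. The third, Pgam2, was at least 1.51-fold lower with the inhibitor beside PD0325901.

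Among the other hypoxia targets, Trf, which encodes the iron carrier transferrin, was at 0.69 with FGF2 beside the JAK inhibitor and 1.61 beside LIF (adjusted p = 0.137 in the additive limma fit). The stress-induced gene Ndrg1 was at −0.43 and −1.15. Ak4, a mitochondrial adenylate kinase, was at −0.69 with the JAK inhibitor beside PD0325901 and −0.76 beside FGF2 (adjusted p = 0.207). The remaining 4 were Errfi1 (0.54 with FGF2 beside the JAK inhibitor and 0.60 beside LIF), Lox (−0.11 and −0.69), Tfrc (−0.60 with the JAK inhibitor beside PD0325901 and −0.33 beside FGF2) and Bhlhe40 (−0.54 and −0.73). For FGF2 these targets went both ways. For the JAK inhibitor those past 1.5-fold were all lower. They numbered 2 beside PD0325901 (4.54% of all genes were lower) and 3 beside FGF2 (2.84%), where Trf was at −0.97. Of the 17 targets, 5 were above 0 beside PD0325901 and 6 beside FGF2. Of the HIF subunits Epas1, which encodes HIF2 alpha, was at 0.35 and 0.73 for FGF2 and at 0.63 with PD0325901 and 0.25 with FGF2 for the JAK inhibitor, and Arnt, the shared partner subunit, stayed within 0.21 of 0.

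In the mitochondrial lists each gene past 1.5-fold for a switch was so in 1 of its 2 media. The citric acid cycle genes Ogdh and Aco1 were at 0.82 and 0.60 for FGF2 beside LIF but −0.04 and −0.43 beside the JAK inhibitor. For the JAK inhibitor they were at 0.67 and 0.65 beside PD0325901 but −0.19 and −0.38 beside FGF2. For FGF2 Idh1 was at −0.83 beside LIF and −0.38 beside the JAK inhibitor. Dld, a subunit shared by several dehydrogenase complexes, was at −0.71 with the JAK inhibitor beside PD0325901 and −0.12 beside FGF2. Pcx, pyruvate carboxylase, was at least 1.44-fold higher with the inhibitor beside PD0325901, not being detected with LIF there.

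**Figure D4:**
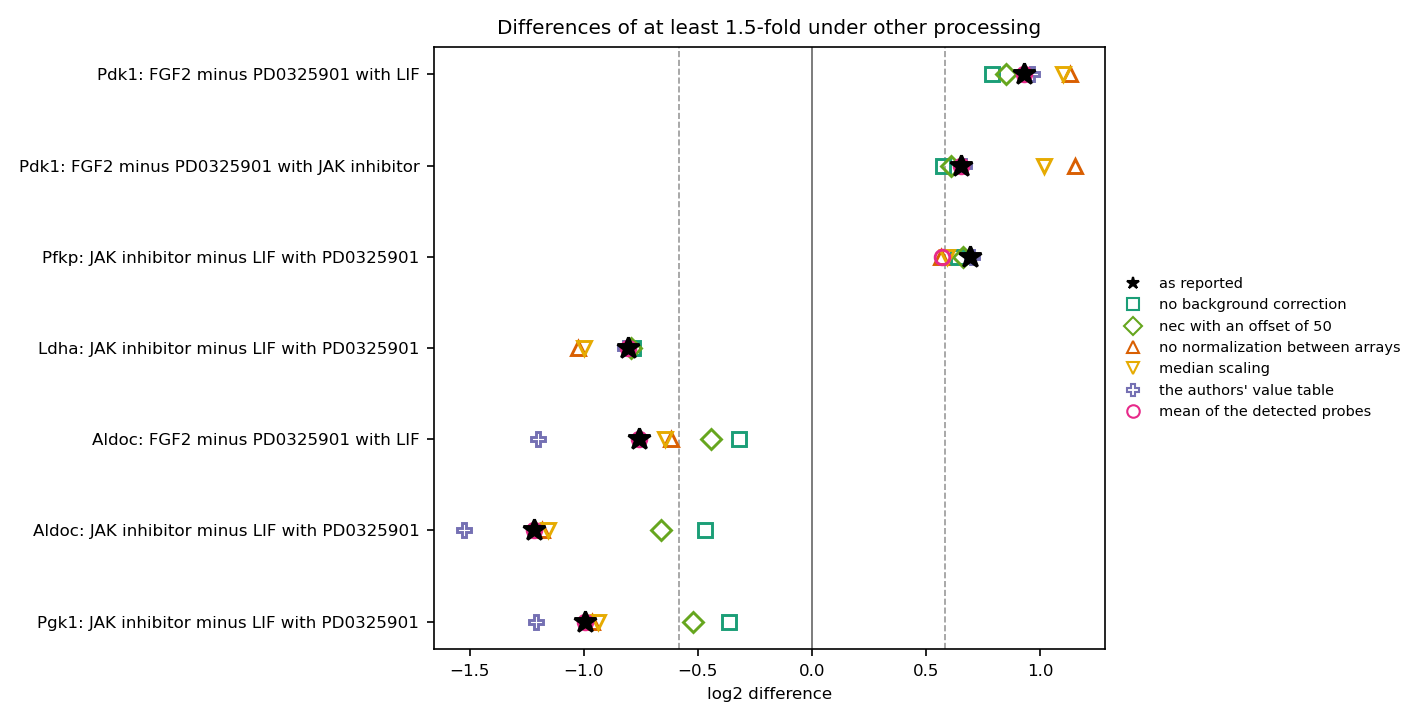
Log2 difference (horizontal axis) for the 7 differences of at least 1.5-fold, which belong to 5 genes, each in a row, as reported (star) and under 6 other ways of processing the same arrays, with dashed lines at 1.5-fold. Each of these differences keeps its sign. Pdk1 is highest without normalization or with median scaling, and Aldoc and Pgk1, the dim probes, spread most, between no background correction and the authors' value table.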

How the data were processed

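Total RNA of 4 cultures was labelled and hybridised to Illumina bead arrays. The submitters' processing notes name BeadStudio, with no version or settings. The deposited values were, per the file headers, a signal in units of intensity with its bead standard error, and a detection p-value, for every probe. The authors' value table held intensities that had been normalized in a way the sources used here do not state; it served as an alternative, with a floor of 16. Signals were background-corrected here (nec in limma 3.58.1, R 4.3.3, offset 16), with the deposited detection p-values estimating the background, then taken to log2 and quantile-normalized together. Of 25697 probes, 23978 had 1 symbol, 0 several and 1719 none. The brightest probe of those detected (p below 0.01 on 1 array or more) stood for its gene, which left 8341 of 16593 genes. Where 1 array of a difference was below detection, the fold was bounded by that array's detection limit. Such a bound ("at least") holds for this background correction and normalization only and leaves out the bead error.

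The additive fit used lmFit and eBayes with Benjamini-Hochberg adjustment over 8341 genes (prior 7.01 degrees of freedom, standard deviation 0.164) and was tested on simulated data. Every member with a probe is accounted for. Array values are given for members of at least 1.5-fold and for the brightest member of a role without one, and further-list genes are named at 1.5-fold in both media of a switch or 2-fold in any. The array values of Slc2a1, Hk2 and Tpi1, and Nanog, Utf1, Sox7, Dab2, Thy1, Acta2, Col1a1, Pgam2, Epas1, Arnt, Errfi1, Lox, Tfrc, Bhlhe40, Ogdh, Aco1, Idh1, Dld and Pcx, were chosen after their values were seen. The members and lists were chosen with earlier results of these data known. The 9 alternatives were no background correction, an offset of 50, no normalization, median scaling, the authors' value table, detection on all 4 arrays, no detection filter, the mean of detected probes, and an intensity trend in eBayes. The number of arrays limits the precision.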

Additional observations from a re-analysis of the deposited data

Results flagged for a closer look

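The FGF2 difference of Ldha had opposite signs in the 2 media. FGF2 minus PD0325901 was 0.23 with the JAK inhibitor and −0.21 with LIF, each more than 2 bead standard errors from 0. The difference between them was not tested, since each medium had 1 array.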

How the results depend on the processing

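No paired analysis was possible because each medium had 1 array and the labels number no replicates. For the same reason no array could be left out, and the intensity trend changes the additive fit only. No result reversed its sign past a threshold. Of 190 single-gene values under the alternatives, 144 moved by less than their bead standard error and 46 by more, 14 of them without normalization and 11 with median scaling. The 144 include values that a setting could not change. These were all values without a detection filter and with detection on all 4 arrays. For the mean of detected probes they were those of Aldoc, Pgk1, Ldha and Pdk1, with 1 probe each. Members at least 1.5-fold numbered, for FGF2 minus PD0325901 with the JAK inhibitor (1 as reported), 0 without background correction, 8 without normalization and 5 with median scaling. With LIF (2 as reported) they were 1 without background correction, 1 with an offset of 50, 1 with detection on all 4 arrays and 5 without normalization. They were 3 with median scaling and 3 in the authors' value table. For JAK inhibitor minus LIF with PD0325901 (4 as reported) they were 2 with detection on all 4 arrays and 2 without background correction. They were 3 with an offset of 50, 3 with the mean of detected probes and 5 with median scaling. With FGF2 (0 as reported) they were 2 without normalization. Without normalization the 4 with PD0325901 held Tpi1 in place of Pfkp. Departures (2 as reported) were 0 without background correction, 0 with an offset of 50, 0 with detection on all 4 arrays and 6 without normalization. They were 3 with median scaling. Members called for FGF2 in the additive fit (0 as reported) were 5 without background correction, 4 with an intensity trend, 2 with an offset of 50, 2 without normalization, 1 with median scaling and 1 with detection on all 4 arrays. Those called for the JAK inhibitor (0 as reported) were 5 with an intensity trend, 4 without background correction, 4 with an offset of 50 and 1 with median scaling. Detection on all 4 arrays leaves 22 members; for the others the cause was not tested. Dim probes near the detection limit, such as those of Aldoc, Pgk1, Pfkfb3 and Egln3, give the least certain sizes.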
